A study of Oryza nivara and Oryza rufipogon with 42 samples.

Results

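Flowering panicles were compared with flag leaves of Oryza rufipogon, a perennial wild rice. The comparison rests on 12 of the 42 libraries of the series, chosen by their species and tissue labels, with 6 flowering panicles (title numbers 43, 47, 50, 95, 199 and 230) and 6 flag leaves (43, 47, 49, 95, 199 and 230). All 12 are digital gene expression (DGE) libraries, in which a short tag cut near the 3' end of each transcript is counted. The plants were untreated and wild-type as far as the labels say, raised from seed in pots in a greenhouse, and their accessions came from India, Thailand and Myanmar. In each tissue 3 plants were sampled in 2009 (numbers 43, 47 and 50 for panicles, 43, 47 and 49 for leaves) and 3 in 2010 (95, 199 and 230). The leaves were taken at the heading stage and these panicles at the flowering stage, so organ and stage cannot be told apart in this contrast. The series also holds heading-stage panicles of the same species and all 3 tissues of O. nivara, which are used below only where they bear on the contrast. The title number was taken as the plant, so 5 plants gave both organs. The main test does not pair the organs of a plant.

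The flag leaf is the uppermost leaf of a rice shoot and the main source of the sugars that later fill the grain. At flowering a panicle holds opened spikelets, with lodicules that swell to part the hulls, anthers that shed pollen and a pistil whose ovary becomes the grain after fertilization. Floral organ identity is set by MADS-box transcription factors acting in combinations. The anther wall layer called the tapetum makes the pollen coat and then degenerates, and pollen fills with starch from imported sugar before it is shed.

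Summed tag counts ran from 2021814 to 4094708 in the panicles and from 1873240 to 4154876 in the leaves. Levels are given in CPM, counts per 1000000 of the library total scaled by the trimmed mean of M values (TMM), and a tag is counted once per transcript, so levels need no division by length. A gene is called higher or lower in the panicle when its adjusted p lies under 0.05 (edgeR quasi-likelihood F test, Benjamini-Hochberg over all 20018 genes tested, two-sided). Between libraries of a tissue, Pearson's r across genes on the log scale was 0.655 to 0.866 in panicles and 0.664 to 0.874 in leaves, against 0.383 to 0.610 between the tissues. Panicle 230 had the lowest mean correlation with its group (0.691), and a call that rests on it is given with and without it. The deposited tables pair no locus with a name, so the gene symbols below were attached to the loci from general knowledge of the rice genome.

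The tissues differed over much of the table. Of the genes tested, 4546 (22.7%) were higher and 3578 (17.9%) lower in flowering panicles, 40.6% in all. The median log2 difference over all genes was 0.09, and the median SE was 0.51. Large differences were mostly towards the panicle: 2790 genes were higher by at least 4-fold and 1802 lower, and at 32-fold the counts were 836 and 45. Of the genes called, 3616 were higher in the panicle of all 5 plants that gave both organs and 2588 were lower in all 5. With the plant as a block, the counts fell to 3016 higher and 2358 lower, 33.0% of the 16284 genes tested, in a fit of the 12 libraries that without the block called 3286 and 2781. Within 2009 alone 2436 genes were higher and 1805 lower, and within 2010 alone 3783 and 2812, each with 3 libraries against 3.

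The 100 most abundant genes took 16.0, 19.9 and 26.6% of the counts in panicles (lowest, median and highest library) and 30.7, 36.0 and 40.2% in leaves, without overlap. At an equal depth of 1873240 counts, 19525 ± 275 genes (SD, n = 6) were detected in a panicle and 18221 ± 448 in a leaf. In the leaf, 116 genes of the table had 0 counts in all 6 libraries, against 12 in the panicle. The authors had kept genes with at least 5 TPM in at least 4 of 36 libraries, 24 of which are panicles, so a gene could enter the table through panicles alone more easily than through leaves alone. The part of that filter in these counts of genes was not tested.

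Of the 249 loci in 19 lists of known rice genes, 227 were in the table and all of these were tested. Among them 79 were called higher and 80 lower in the panicle. The lists that were lowest in the panicle hold photosynthesis and chlorophyll genes, and those that were highest hold late pollen and floral organ genes, as the plot of log2 differences by list shows. Members that passed a filter on low counts only through 1 tissue are part of every such count.

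**Figure D1:**
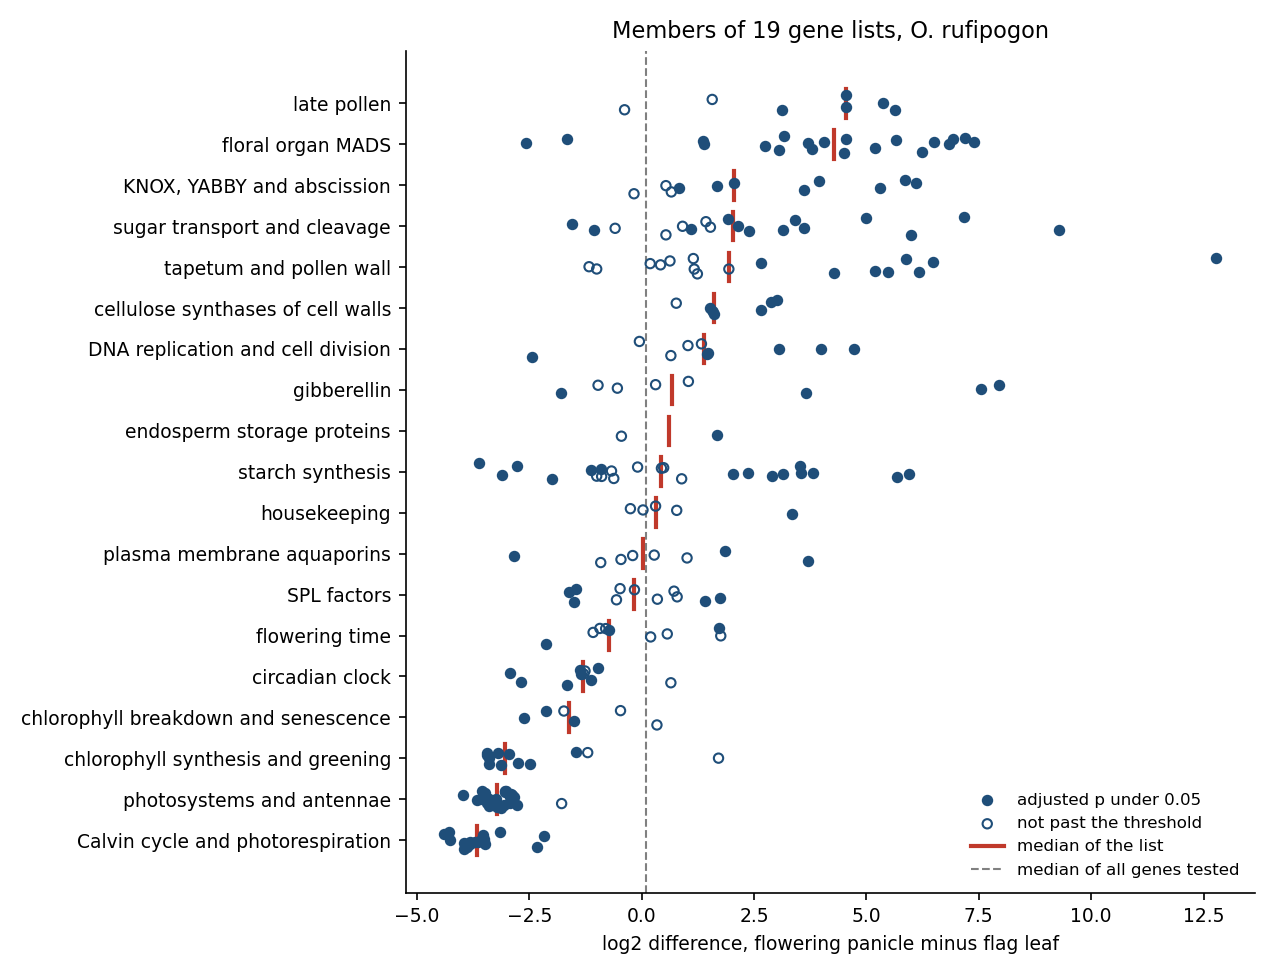
Log2 differences (flowering panicle minus flag leaf) of the 227 tested members of 19 gene lists, 1 point per gene, filled where the adjusted p is under 0.05. Red bars are list medians, from -3.67 for the Calvin cycle to 4.54 for late pollen, and the dashed line is the median of all genes tested (0.09).

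Genes of the photosynthetic machinery were lower in the panicle almost without exception. Of 25 photosystem and antenna genes, which capture light in the chloroplast, 24 were lower and 0 higher (17.9 and 22.7% of all genes), with a median log2 difference of -3.22. Of 18 tested genes of the Calvin cycle, which fixes carbon dioxide, and of photorespiration, 18 were lower (17.9% of all genes), with a median of -3.67. Both lists held within each year, with medians of -3.47 and -3.54 in 2009 and of -2.88 and -3.68 in 2010. Together they took 1.47, 2.83 and 4.87% of the counts in panicles and 12.9, 17.2 and 23.1% in leaves. In bulk tissue fewer green cells and less of this RNA per cell cannot be told apart. The leaf mesophyll marker genes, RBCS2, RBCS3, RCA, LHCB1.1, GAPB and CAO1, were all lower in the panicle and all detected there, and their summed level was 2278 to 16707 CPM in panicles against 27889 to 98550.4 CPM in leaves.

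The largest difference among the antenna genes was in LHCB1.2 (LOC_Os09g17740), a chlorophyll-binding protein of photosystem II. It was at 55.7, 111 and 182 CPM in panicles (lowest, median and highest) and at 1067, 1751 and 3836 CPM in leaves. The groups lay far apart, and the log2 difference was -3.98 (SE 0.41, adjusted p = 2.56e-08). PsaO (LOC_Os04g33830) and PsaD (LOC_Os08g44680), subunits of photosystem I, were also lower without overlap, with log2 differences of -3.67 (SE 0.53) and -3.56 (SE 0.48). LHCB1.1 (LOC_Os01g41710), a close relative of LHCB1.2, behaved less evenly. Its panicle levels ran from 539 to 2692 CPM and its leaf levels from 2255 to 11277 CPM, and the overlap was in plant 199, whose panicle (2692 CPM) was above its leaf (2255 CPM). The exception among the 25 genes was LHCB1.3 (LOC_Os01g52240), at a median of 289 CPM in panicles and 902 CPM in leaves, a log2 difference of -1.78 that missed the threshold (adjusted p = 0.0707). LHCB1 copies are alike in sequence, and how the authors' counting divided tags between them is not known.

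RBCS3 (LOC_Os12g19381), which encodes a small subunit of the carbon-fixing enzyme RuBisCO, had the highest mean level of all genes in the leaf. It was at 1083, 2147 and 9736 CPM in panicles and at 11997, 26674 and 45629 CPM in leaves. The highest panicle was 230, and it still lay below the lowest leaf. The log2 difference was -3.16 (SE 0.48, adjusted p = 6.55e-06). Another copy, RBCS2 (LOC_Os12g17600), ranged much more widely within each tissue, from 6.05 to 4706 CPM in panicles and from 276 to 41772 CPM in leaves. Plant 199 was the lowest in panicle and leaf, and its heading panicle was also lowest, at 0.910 CPM. The log2 difference of RBCS2 was -4.27 (SE 1.57, adjusted p = 0.0293), and it was -6.0 without panicle 230. Without any 1 of leaves 43 and 230 or panicles 43, 47, 50 and 95 its adjusted p rose to between 0.0534 and 0.0631. A further copy, RBCS5 (LOC_Os12g19470), was at 1046, 2936 and 7221 CPM in panicles and 5414, 16811 and 22310.2 CPM in leaves, with a smaller log2 difference of -2.33 (SE 0.49). The small subunit copies are near-identical, so their tags may be divided between them unevenly.

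Further down the cycle, PRK (LOC_Os02g47020), the phosphoribulokinase that regenerates the acceptor of carbon dioxide, showed the largest difference of the list. It was at 1.91, 117 and 352 CPM in panicles and at 264, 2262 and 6371 CPM in leaves, with a log2 difference of -4.39 (SE 1.01, adjusted p = 7.86e-04). The lowest panicle was 50 and the lowest leaf was 49. The chloroplast aldolase cFBA (LOC_Os11g07020), an abundant enzyme of the cycle, was at 178, 658 and 2037 CPM in panicles and 1754, 14651 and 31835 CPM in leaves (log2 -3.96, SE 0.60), with a slight overlap. RCA (LOC_Os11g47970), the activase that keeps RuBisCO active, differed by year as well as by tissue. Its leaf level was 147 to 229 CPM in 2009 and 2236 to 6048 CPM in 2010, and its panicle level 6.48 to 11.1 CPM and 45.8 to 544 CPM. Panicle 230, the highest, was above the 3 leaves of 2009. The log2 difference was -4.40 within 2009, -3.95 within 2010 and -4.28 over both (SE 0.70, adjusted p = 1.58e-05), or -5.22 without panicle 230.

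The flowering panicle was above the heading panicle for part of the carbon-fixing list. Of its 18 genes, 8 were higher at flowering than at heading and 0 lower, where 4.18 and 4.03% of all genes were called. HPR1 (LOC_Os02g01150), the hydroxypyruvate reductase of photorespiration, had a median of 64.9 CPM in flowering panicles, 23.8 CPM in heading panicles and 821 CPM in leaves, and flowering exceeded heading by 1.84 (SE 0.41, adjusted p = 0.00461). None of the 25 photosystem and antenna genes was called between the panicle stages, where their median log2 difference was 0.49. The summed Calvin cycle share of panicle 230, 2.65%, was above the 0.561 to 1.09% of the other 5.

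Chlorophyll genes followed the photosystems. Of 12 genes of chlorophyll synthesis and greening 10 were lower in the panicle and 0 higher (17.9 and 22.7% of all genes), with a median log2 difference of -3.04. The enzymes DVR (LOC_Os03g22780), the divinyl reductase, and CRD1 (LOC_Os01g17170), the cyclase, had the largest differences of the list, -3.45 (SE 0.49) and -3.43 (SE 0.40). DVR was at 2.32 to 7.96 CPM in panicles and 21.3 to 90.2 CPM in leaves, without overlap, and CRD1 at 32.5 to 675 CPM and 331 to 4865 CPM. GLK2 (LOC_Os01g13740), a transcription factor that promotes chloroplast development, was at 7.63, 18.1 and 50.3 CPM in panicles and 152, 213 and 307 CPM in leaves, a log2 difference of -3.39 (SE 0.46, adjusted p = 1.27e-06) without overlap. CAO1 (LOC_Os10g41780), which makes chlorophyll b, and CHLH (LOC_Os03g20700), a subunit of the magnesium chelatase at the branch to chlorophyll, had log2 differences of -3.13 (SE 0.36) and -3.39 (SE 0.37). PORA (LOC_Os04g58200), a protochlorophyllide reductase that is known from dark-grown seedlings, ran against the list. It stood at a median of 298 CPM in panicles and 149 CPM in leaves, a log2 difference of 1.71 that missed the threshold (adjusted p = 0.0540). Its leaf level ran from 1.14 CPM in leaf 199 to 1899.6 CPM in leaf 47. Of 6 genes of chlorophyll breakdown 3 were lower (17.9% of all genes) and 0 higher: NYC1 (LOC_Os01g12710), NYC3 (LOC_Os06g24730) and PAO (LOC_Os03g05310), with log2 differences of -2.13 (SE 0.32), -2.61 (SE 0.40) and -1.51 (SE 0.27). OsNAP (LOC_Os03g21060), which as a NAC factor promotes senescence, stood at a median of 9.94 CPM in panicles and 7.06 CPM in leaves and was not called.

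Floral organ genes were nearly all higher in the panicle. Of 20 genes tested, 18 were higher (22.7% of all genes) and 2 lower, with a median log2 difference of 4.28 that was 4.24 within 2009 and 4.23 within 2010. In 15 of the 18 the libraries did not overlap, as was the case for 10.0% of all genes in this direction. Against heading panicles 0 of the 20 were called in either direction, with a median log2 difference of 0.26. The list took 0.189, 0.311 and 0.340% of the counts in panicles and 0.0189, 0.0547 and 0.0910% in leaves.

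The B-class genes, which specify lodicules and stamens, included the largest difference of the list. OsMADS2 (LOC_Os01g66030), which acts in lodicules, was at 161, 299 and 396 CPM in panicles and at 0, 1.94 and 2.59 CPM in leaves, a log2 difference of 7.39 (SE 0.72, adjusted p = 9.81e-09). Its partner copy OsMADS4 (LOC_Os05g34940) was at 25.8, 59.7 and 87.3 CPM in panicles and had 4 counts in all 6 leaves together, a log2 difference of 7.2 (SE 0.69). OsMADS16 (LOC_Os06g49840), the APETALA3-like B gene, was the most abundant of the list in panicles, at 175, 525 and 1264 CPM, and it also had the most leaf counts of these 3. Leaves held it at 4.66 to 5.48 CPM in 2009 and at 18 to 26.7 CPM in 2010, and the log2 difference was 5.66 (SE 0.43, adjusted p = 4.17e-10).

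C- and D-class genes, which act in stamens, carpels and ovules, were also high in the panicle. OsMADS3 (LOC_Os01g10504), a C-class gene, was at 44.0, 99.8 and 192 CPM in panicles and at 2.65, 6.5 and 8.53 CPM in leaves, a log2 difference of 4.05 (SE 0.47, adjusted p = 1.32e-07). OsMADS58 (LOC_Os05g11414), its duplicate, was higher by 5.20 (SE 0.66). OsMADS13 (LOC_Os12g10540), an ovule identity gene, stood at 36.5, 67.8 and 193 CPM in panicles and 0, 0.449 and 2.44 CPM in leaves, a log2 difference of 6.93 (SE 0.73, adjusted p = 3.17e-08), or 7.76 without leaf 49. DL (LOC_Os03g11600), a YABBY gene that specifies the carpel and also shapes the leaf midrib, was at 21.4 to 123 CPM in panicles and 0 to 14.6 CPM in leaves, higher by 3.70 (SE 0.60).

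Among the E-class genes, which act with the other classes, OsMADS7 and OsMADS8 form a duplicate pair that differed in these plants. OsMADS7 (LOC_Os08g41950) was at 146, 299 and 579 CPM in panicles and at 1.03, 1.75 and 8.0 CPM in leaves, a log2 difference of 6.84 (SE 0.54, adjusted p = 4.17e-10), or 7.52 without leaf 199. OsMADS8 (LOC_Os09g32948) was at 43.5, 89.6 and 51.4 CPM in panicles 47, 50 and 95, but at 0, 0.224 and 0.419 CPM in panicles 43, 199 and 230, no higher than in leaves (0 to 2.39 CPM). The heading panicles showed the same split by plant, with 42.7 and 101 CPM in 47 and 95 and at most 1.74 CPM in 43, 199 and 230. RNA-seq of this species covers plant 47 alone, so the low tag counts of plants 43, 199 and 230 have no second reading. Over all libraries the log2 difference of OsMADS8 was 4.54 (SE 1.36, adjusted p = 0.00780), and without panicle 95 it was 3.88 with an adjusted p of 0.0549. Without panicle 50 it was 3.87. OsMADS1 (LOC_Os03g11614), which specifies the floret meristem and its hulls, was at 133, 349.6 and 496 CPM in panicles and 0.762, 3.74 and 22.5 CPM in leaves. Its log2 difference was 6.24 (SE 0.61, adjusted p = 1.11e-08).

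The 2 genes that were lower in the panicle belong to the AP1/FUL-like group, which promotes the transition of the shoot to flowering and is active in leaves as well. OsMADS14 (LOC_Os03g54160) was at 27.4, 66.8 and 119 CPM in panicles and at 105, 398 and 838 CPM in leaves, a log2 difference of -2.58 (SE 0.51, adjusted p = 1.58e-04). In plant 47 alone the panicle (119 CPM) was above the leaf (109 CPM). OsMADS18 (LOC_Os07g41370) was lower (log2 -1.66, SE 0.44, adjusted p = 0.00281), and it was lower in all 5 plants that gave both organs. The remaining gene of the group, OsMADS15 (LOC_Os07g01820), ran the other way, at 97.0, 215 and 324 CPM in panicles and 2.12, 39.1 and 78.9 CPM in leaves, a log2 difference of 2.74 (SE 0.54, adjusted p = 1.37e-04).

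**Figure D2:**
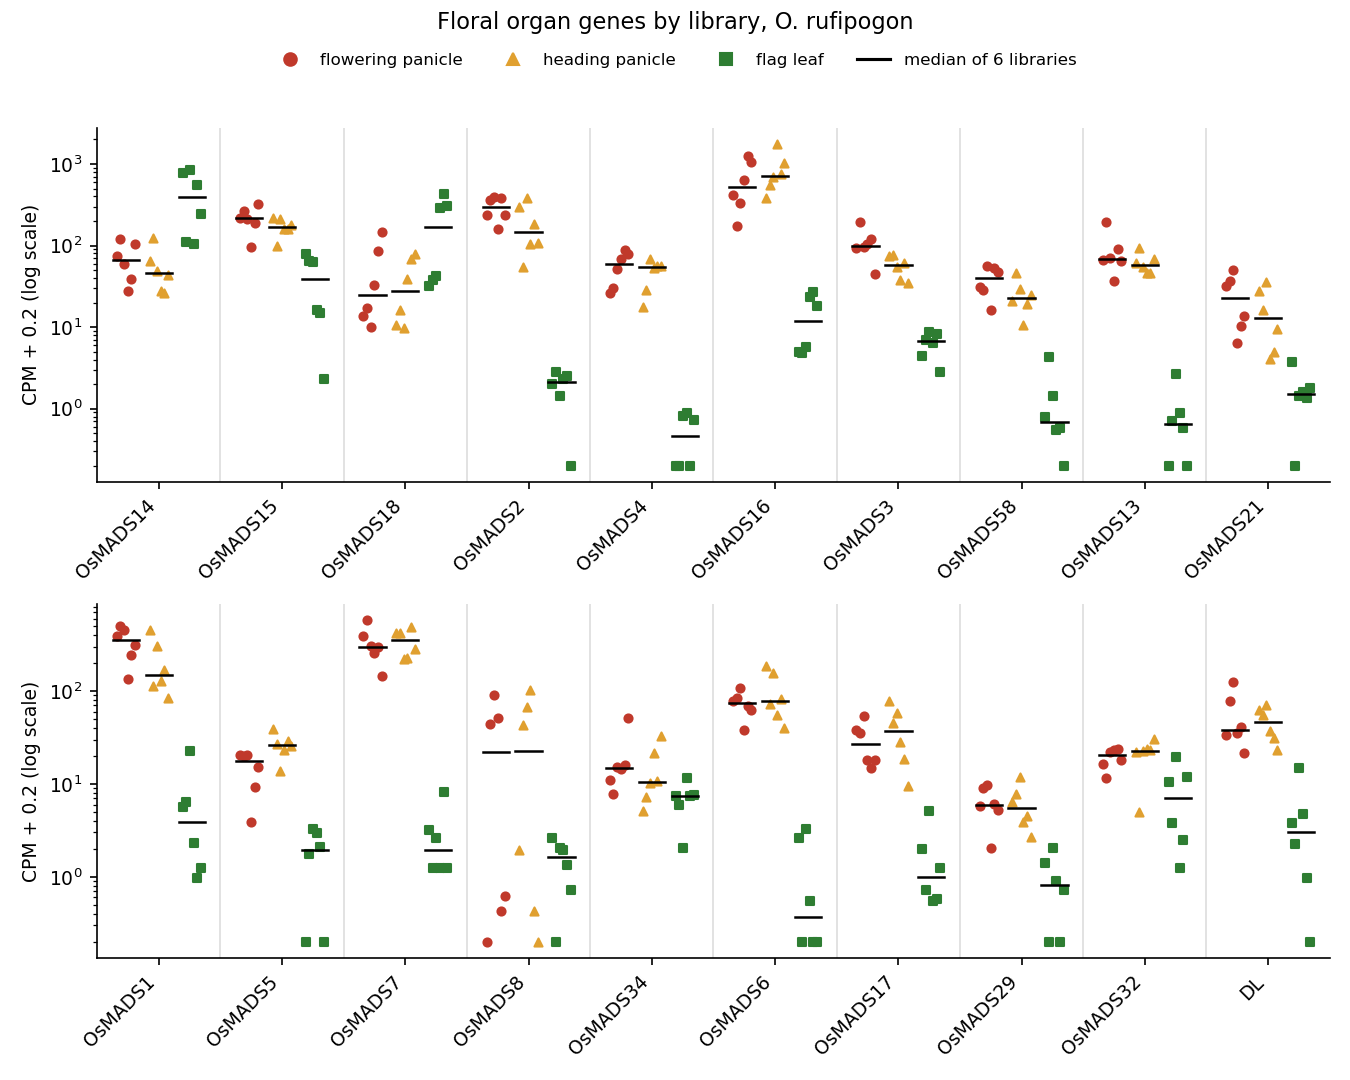
Levels of the 20 floral organ genes in each O. rufipogon library, as CPM plus 0.2 on a log scale, with 6 libraries per tissue and the median as a bar. By median, leaves lie below flowering panicles for 18 genes and above them for OsMADS14 and OsMADS18, and OsMADS8 splits the panicles into high and low.

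Meristem, lateral organ and abscission genes were also on the panicle side. Of 11 tested genes of the KNOX and YABBY families and of grain shattering, 8 were higher and 0 lower (22.7 and 17.9% of all genes), with a median log2 difference of 2.06. KNOX genes keep cells of the shoot tip undetermined and are silent in expanded leaves. OSH71 (LOC_Os05g03884) was at 16.7, 49.0 and 96.9 CPM in panicles and 0, 0.789 and 1.83 CPM in leaves, a log2 difference of 6.10 (SE 0.50, adjusted p = 7.18e-10), and OSH15 (LOC_Os07g03770) was higher by 5.86 (SE 0.82), a value that was 6.93 without leaf 49 and 5.12 without panicle 230. OSH1 (LOC_Os03g51690) had more leaf counts, at 1.55, 12.3 and 33.5 CPM against 37.1, 67.1 and 96.9 CPM in panicles, and was higher by 2.06 (SE 0.59, adjusted p = 0.00539). OsYAB1 (LOC_Os07g06620), a YABBY factor of floral organs, was at 115, 359.6 and 597 CPM in panicles and 4.14, 6.96 and 15.9 CPM in leaves, higher by 5.31 (SE 0.52). Among genes of the abscission zone, where wild rice sheds its grain, SH5 (LOC_Os05g38120) was higher by 3.94 (SE 0.54) and OsSh1 (LOC_Os03g44710) by 1.68 (SE 0.31). SHAT1 (LOC_Os04g55560), an AP2 factor of the same zone, stood at a median of 30.7 CPM in panicles and 38.6 CPM in leaves (adjusted p = 0.795).

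Genes of the tapetum and pollen wall differed from the leaf unevenly. Of 17 tested, 8 were higher in the flowering panicle and 0 lower (22.7 and 17.9% of all genes), with a median log2 difference of 1.94, while in heading panicles 17 of 17 were above the leaf (23.9% of all genes were called higher there). From heading to flowering 9 of the 17 were lower and 0 higher (4.03 and 4.18% of all genes). The median log2 difference of the list from the leaf was 1.74 within 2009 and 3.79 within 2010. The summed level of the 6 tapetum markers, TDR, TIP2, EAT1, RTS, OsC6 and CYP704B2, was 90.1, 581 and 5754 CPM in flowering panicles and 3.10, 9.08 and 15.2 CPM in leaves, and it was 1255 to 19983 CPM in heading panicles. These ranges cross between the panicle stages, and what part the exact stage of each panicle had in the values was not tested.

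RTS (LOC_Os01g70440), a tapetum gene needed for male fertility, was at 6.70, 517 and 5193 CPM in panicles, with the lowest value in panicle 230 and the highest in panicle 95, and it had 2 counts in all 6 leaves together. The ratio of panicle to leaf had a 95% counting interval from 3385 to 100975, which leaves out this spread between panicles. OsC6 (LOC_Os11g37280), a lipid transfer protein of the pollen wall, also spread widely, at 3.35, 33.7 and 379.7 CPM in panicles and 0, 0.863 and 6.27 CPM in leaves. It was above the leaf by 5.19 (SE 1.42, adjusted p = 0.00377), or by 6.57 without leaf 95 and 4.31 without panicle 95, and below the heading panicle (log2 -5.55, SE 1.39, adjusted p = 0.0107), where its median was 1694 CPM. WDA1 (LOC_Os10g33250), of wax synthesis in the anther wall, was steadier, at 84.2, 196 and 384 CPM in panicles and 0, 1.91 and 7.18 CPM in leaves. Its log2 difference was 6.16 (SE 0.74, adjusted p = 2.24e-07), and it was not called between the panicle stages (adjusted p = 0.762). STRL2 (LOC_Os03g15710), a strictosidine synthase-like gene, was at 1.33, 5.89 and 36.3 CPM in panicles. Leaf 199 held it at 0.381 CPM and the other 5 leaves at 0. It was called higher (log2 6.48, SE 1.26, adjusted p = 1.90e-04), but the size of that difference rests on the 1 leaf with any count. Without leaf 199 the fitted value was 7.62, set against leaves that all held 0.

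The regulators of tapetum development were present at flowering at moderate levels. TDR (LOC_Os02g02820), a bHLH factor of tapetum degeneration, was at 4.64, 40.7 and 196 CPM in panicles and 0.348, 1.48 and 5.33 CPM in leaves, a log2 difference of 4.27 (SE 0.99, adjusted p = 8.11e-04) that was 5.07 without leaf 199 and 3.67 without panicle 47. EAT1 (LOC_Os04g51070), a bHLH factor that acts after TDR, had 355 counts in panicles and 3 in leaves. The 95% counting interval of its ratio was 26.1 to 375, which leaves out the spread between plants. TIP2 (LOC_Os01g18870), another bHLH factor, was at 3.31, 8.51 and 20.5 CPM in panicles and 0, 1.47 and 6.70 CPM in leaves and missed the threshold (log2 1.94, SE 0.91, adjusted p = 0.0883). TIP2 was above the leaf in all 5 plants with both organs, and its adjusted p was 0.0159 with the plant as a block. Without leaf 49 its log2 difference was 2.74 with an adjusted p of 0.0232. Leaving out other single libraries moved TIP2 the other way, with an adjusted p of up to 0.226 and the smallest log2 difference without leaf 199.

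Some enzymes that build the outer pollen wall were not called against the leaf at flowering. CYP704B2 (LOC_Os03g07250), a fatty acid hydroxylase for sporopollenin, was at 1.33, 1.71 and 10.1 CPM in panicles and 0, 2.01 and 3.59 CPM in leaves, with the highest panicle value in 230 (log2 0.63, SE 1.36, adjusted p = 0.753, and log2 -0.13 without panicle 230). In heading panicles it ran from 0.279 to 2281 CPM, and flowering was below heading (log2 -7.48, SE 1.55, adjusted p = 0.00263). Its companion CYP703A3 (LOC_Os08g03682) stood at a median of 3.96 CPM in flowering panicles and 2.59 CPM in leaves (adjusted p = 0.486), and was below the heading panicle (log2 -5.92, SE 1.37, adjusted p = 0.00599). ACOS12 (LOC_Os04g24530), a fatty acyl-CoA synthetase of the same pathway, had 5 counts in the 6 flowering panicles and 3 in the 6 leaves. Its heading values, from 0.558 to 3963 CPM, were highest in heading panicles 43 and 199, which were also highest for CYP703A3.

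Late pollen genes were mostly above the leaf, and between the panicle stages they were called in both directions. Of 7 tested, 5 were above the leaf and 0 below (22.7 and 17.9% of all genes), with a median log2 difference of 4.54 that was 2.53 within 2009 and 6.02 within 2010. From heading to flowering 3 of the 7 were higher and 2 lower (4.18 and 4.03% of all genes). The summed level of the mature pollen markers, OsMADS62, OsMADS63 and OsMADS68, which are MADS-box genes of pollen, was 88.1, 152 and 279 CPM in flowering panicles, 3.83, 4.41 and 22.7 CPM in leaves and 1.82 to 51.5 CPM in heading panicles. Every flowering panicle lay above every leaf and every heading panicle for this sum.

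OsMADS68 (LOC_Os11g43740) was at 13, 25.7 and 57.8 CPM in flowering panicles and at 0, 0.865 and 1.83 CPM in leaves, a log2 difference of 5.64 (SE 1.1, adjusted p = 1.28e-04). It was above the heading panicle by 3.64 (SE 0.97, adjusted p = 0.0167). OsMADS63 (LOC_Os06g11970) was at 49.2, 79.4 and 235 CPM against 0, 2.69 and 13.4 CPM in leaves, higher by 4.54 (SE 1.05, adjusted p = 8.11e-04), and did not pass the threshold between the stages (adjusted p = 0.126). OsMADS62 (LOC_Os08g38590) leaned on single libraries: panicle 230 held 93.9 CPM where the other 5 held 13 to 29.4 CPM, and leaf 43 held 14.4 CPM. Its log2 difference of 3.13 (SE 1.05, adjusted p = 0.0167) became 2.11 with an adjusted p of 0.0819 without panicle 230, and 4.29 without leaf 43. OsSUT3 (LOC_Os10g26470), a sucrose transporter of pollen, was at 4.96, 23.7 and 88.8 CPM in flowering panicles, 0.517, 0.920 and 1.83 CPM in leaves and at most 2.09 CPM in heading panicles. It was above the leaf by 4.54 (SE 1.19, adjusted p = 0.00275) and above the heading panicle by 4.87 (SE 1.27, adjusted p = 0.0142). MST8 (LOC_Os01g38680), an anther sugar transporter, and CSA (LOC_Os01g16810), the MYB factor that controls it, were below the heading panicle (log2 -5.26, SE 0.99, and -3.29, SE 0.73) and were not called against the leaf (adjusted p = 0.808 and 0.101).

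**Figure D3:**
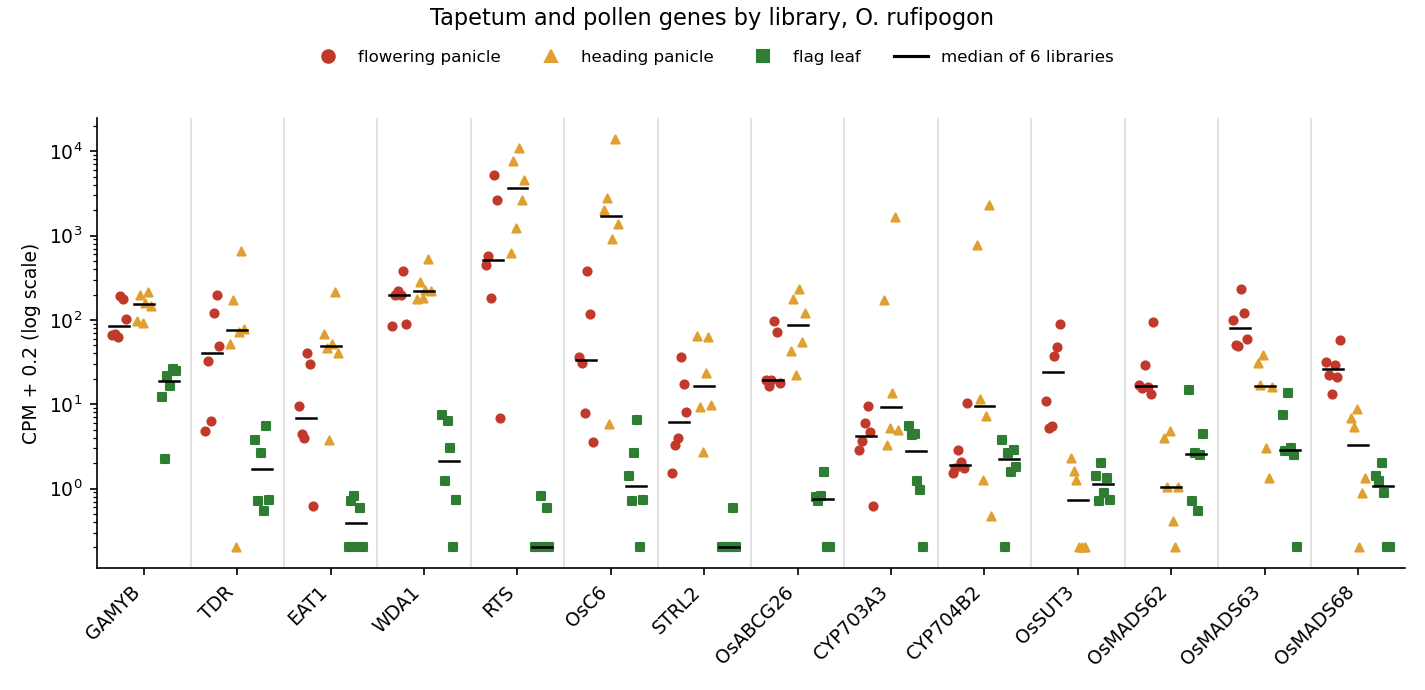
Levels of tapetum and pollen genes in each O. rufipogon library, as CPM plus 0.2 on a log scale, with 6 libraries per tissue and the median as a bar. RTS and OsC6 spread over the flowering panicles (6.70 to 5193 and 3.35 to 379.7 CPM), CYP703A3 and CYP704B2 lie near the leaf at flowering, and OsSUT3, OsMADS62, OsMADS63 and OsMADS68 have their highest medians at flowering.

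Starch genes divided by isoform. Of 23 tested, 9 were higher and 6 lower in the panicle (22.7 and 17.9% of all genes), with a median log2 difference of 0.44. For several starch synthases rice has a gene best known from the grain and another best known from leaves. For 3 such pairs the copies were called in opposite directions, the grain form higher in the panicle and the leaf form lower: granule-bound synthase (Wx and GBSSII), soluble synthase II (SSIIa and SSIIb) and soluble synthase III (SSIIIa and SSIIIb). The summed share of the list was 0.133 to 0.203% in panicles and 0.0811 to 0.219% in leaves, with the panicle range inside that of the leaf.

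Wx (LOC_Os06g04200), which makes grain amylose, was at 6.10, 34.8 and 156 CPM in panicles and 0.598, 1.98 and 11.4 CPM in leaves, a log2 difference of 3.53 (SE 0.94, adjusted p = 0.00316). The leaf form GBSSII (LOC_Os07g22930) was at 29.4, 79.2 and 213 CPM in panicles and 126, 793 and 1618 CPM in leaves, lower (log2 -3.10, SE 0.61, adjusted p = 1.42e-04). Each was on its own side in all 5 plants that gave both organs. SSIIa (LOC_Os06g12450), an enzyme of grain amylopectin, was at 11.1 to 25.8 CPM in 5 panicles and 0.419 CPM in panicle 230, with 4 counts in the 6 leaves, higher by 5.67 (SE 0.79, adjusted p = 1.94e-06), or by 6.82 without leaf 95. SSIIb (LOC_Os02g51070) mirrored it, at 11.2, 13.4 and 22.5 CPM in panicles and 69.4, 171 and 342 CPM in leaves, lower (log2 -3.61, SE 0.35, adjusted p = 9.33e-09).

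BEIIb (LOC_Os02g32660), the grain branching enzyme, was the most abundant starch transcript of the panicle. It was at 289, 374 and 534 CPM there and at 4.53, 6.47 and 9.13 CPM in leaves, a log2 difference of 5.95 (SE 0.65, adjusted p = 5.42e-08), and at 26.8 to 261 CPM in heading panicles, below every flowering panicle. Flowering exceeded heading by 2.27 (SE 0.56, adjusted p = 0.00917). Its relative BEIIa (LOC_Os04g33460), present in most organs, stood at medians of 49.4 and 67.6 CPM in panicles and leaves (adjusted p = 0.134). Subunits of ADP-glucose pyrophosphorylase, which makes the precursor of starch, split as well. AGPS1 (LOC_Os09g12660) was higher by 3.82 (SE 0.38), AGPS2 (LOC_Os08g25734) lower (log2 -0.91, SE 0.30, adjusted p = 0.0163) and AGPL1 (LOC_Os05g50380) higher by 3.54 (SE 0.53), while AGPL3 (LOC_Os03g52460) was lower (log2 -2.78, SE 0.51), at 11.1 to 96.4 CPM in panicles and 109.7 to 447 CPM in leaves. ISA3 (LOC_Os09g29404), a debranching enzyme that acts in starch breakdown, was higher by 2.37 (SE 0.42) and above the heading panicle by 1.5 (SE 0.41, adjusted p = 0.0192).

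Endosperm genes outside the starch list gave little signal. Of 7 storage protein genes and their regulators 2 were in the table. The glutelin GluA2 (LOC_Os10g26060), a seed storage protein, was at 1.53, 2.42 and 3.58 CPM in panicles and 0.598, 2.88 and 9.75 CPM in leaves (adjusted p = 0.637). RISBZ1 (LOC_Os07g08420), a bZIP activator of storage genes, was at 2.79, 3.92 and 4.93 CPM against 0, 1.36 and 1.83 CPM, called higher (log2 1.67, SE 0.62, adjusted p = 0.0309). That call was lost without any 1 of leaves 47, 95, 199 and 230 or panicle 199, where the adjusted p was between 0.0561 and 0.0812, and the gene did not pass the filter on low counts in the fit of the 12 libraries.

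**Figure D4:**
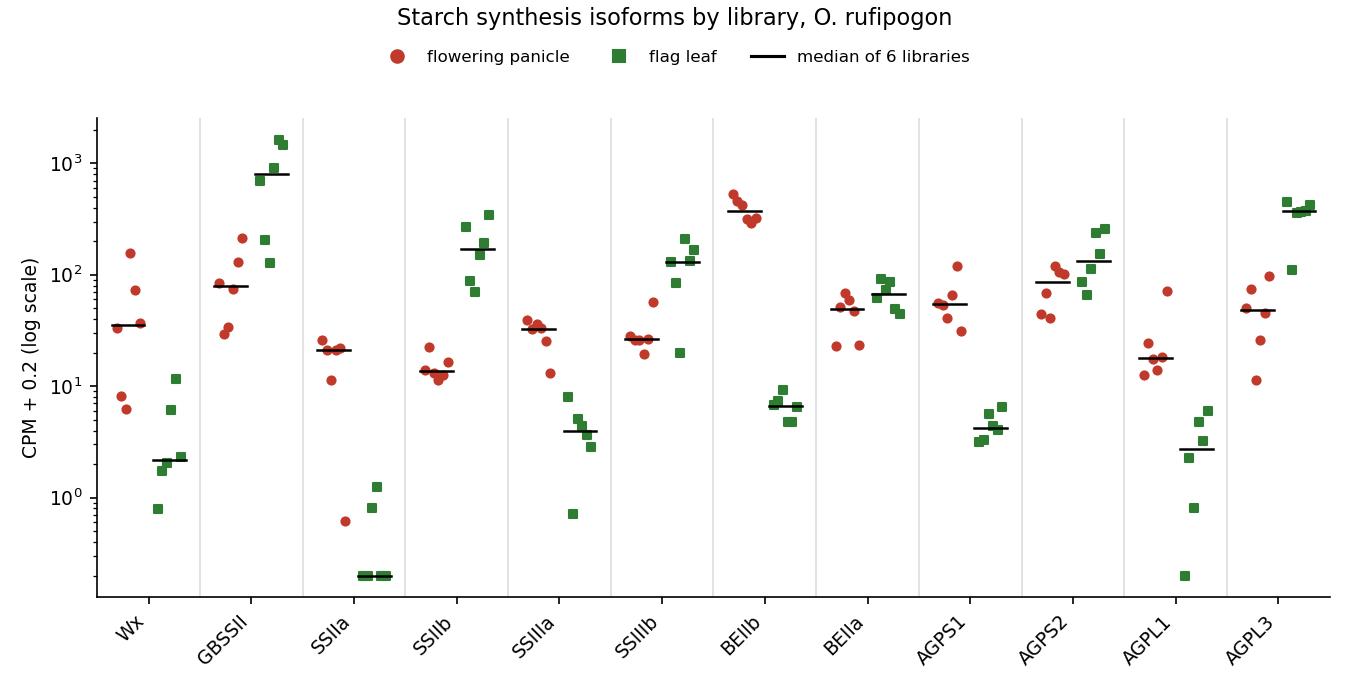
Levels of 12 starch synthesis genes in each O. rufipogon library, as CPM plus 0.2 on a log scale, with 6 libraries per tissue and the median as a bar. Wx, SSIIa, SSIIIa, BEIIb, AGPS1 and AGPL1 have their higher medians in the panicle, and GBSSII, SSIIb, SSIIIb, BEIIa, AGPS2 and AGPL3 in the leaf. The low SSIIa point among the panicles is number 230.

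Genes that move and split sugar were mostly higher in the panicle. Of 18 tested, 11 were higher and 2 lower (22.7 and 17.9% of all genes), with a median log2 difference of 2.04. SWEET proteins export sugars from cells. OsSWEET5 (LOC_Os05g51090) was at 13.9, 236 and 1542 CPM in panicles and 0, 1.17 and 2.44 CPM in leaves, higher by 9.28 (SE 1.59, adjusted p = 2.97e-05) or by 7.23 without panicle 230, and it was above the heading panicle by 4.12 (SE 1.25, adjusted p = 0.0364). OsSWEET11 (LOC_Os08g42350) was at 83.5, 105 and 159 CPM in panicles and 0, 0.572 and 5.48 CPM in leaves, higher by 6.0 (SE 0.84, adjusted p = 1.79e-06), or by 8.70 without leaf 49. OsSWEET15 (LOC_Os02g30910), which works with OsSWEET11 in the developing grain, stood at 13.7 to 16.9 CPM in the panicles of 2009 and 90.5 to 131 CPM in those of 2010, and at 0 to 2.65 CPM in leaves.

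Cell wall invertases split sucrose outside the importing cell. GIF1 (LOC_Os04g33740), the invertase of early grain filling, was at 17.9, 41.6 and 184 CPM in panicles, with 5 counts in all leaves, higher by 7.16 (SE 0.91, adjusted p = 5.38e-07). OsINV4 (LOC_Os04g33720), known from anthers and counted with the late pollen genes, was at 84.2 to 581 CPM in 5 panicles and 1.26 CPM in panicle 230, within the leaf range of 0.531 to 8.36 CPM, and was higher by 5.37 (SE 1.13, adjusted p = 3.19e-04), or by 5.63 without panicle 230. OsSUT1 (LOC_Os03g07480), the main sucrose transporter of phloem and grain, stood at medians of 135 and 64.0 CPM and was called higher (log2 1.09, SE 0.41, adjusted p = 0.0342). It was higher in the panicle of 2 of 5 plants and lower in 3, and its log2 difference was 2.44 within 2009 and -0.22 within 2010. OsSUT2 (LOC_Os12g44380), which exports sucrose from the vacuole, was lower, at 11.4, 19 and 62.4 CPM against 18.1, 93.5 and 109 CPM in leaves (log2 -1.54, SE 0.38, adjusted p = 0.00160). The other member called lower was the cell wall invertase OsCIN1 (LOC_Os02g33110), at medians of 153 and 372 CPM (log2 -1.05, SE 0.39, adjusted p = 0.0313), and its adjusted p was 0.0966 with the plant as a block and 0.0523 to 0.0851 without any 1 of leaves 43 and 199 or panicles 47, 50, 95 and 199.

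Of 8 gibberellin genes tested, 3 were higher and 1 lower in the panicle (22.7 and 17.9% of all genes), a share in all near that of the whole table (40.6%). GA2ox1 (LOC_Os05g06670), which inactivates gibberellins, was at 164, 339 and 1136 CPM in panicles and 0.531, 1.47 and 4.19 CPM in leaves, higher by 7.96 (SE 1.12, adjusted p = 2.07e-06). GA3ox1 (LOC_Os05g08540), which makes the active hormone and is known from anthers, was at 17.9, 41.0 and 353 CPM in panicles, with 6 counts in all leaves, higher by 7.56 (SE 1.26), or by 8.16 without leaf 49 and 6.71 without panicle 95. GA20ox1 (LOC_Os03g63970), an earlier step, was higher by 3.66 (SE 0.51), at 10.3 to 82.2 CPM against 0 to 6.48 CPM in leaves. Enzymes that make and enzymes that remove the hormone were therefore both among those called higher. GA20ox2 (LOC_Os01g66100), the semidwarf gene of rice, was the member called lower (log2 -1.80, SE 0.65, adjusted p = 0.0262). Its call rested on few libraries: leaves 95 and 199 held 58.5 and 26.7 CPM where the other 4 held 1.06 to 6.73 CPM. Its adjusted p was 0.324 with the plant as a block and 0.0507 to 0.118 without any 1 of leaves 47 and 95 or panicles 95 and 230. The signalling genes SLR1, GID1 and GID2 were not called (adjusted p = 0.447, 0.0652 and 0.127).

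Of 10 circadian clock genes tested, 7 were lower in the panicle and 0 higher (17.9 and 22.7% of all genes), with a median log2 difference of -1.31. With the plant as a block 4 of the 10 were called, near the 33.0% of all genes in that fit. OsPRR37 (LOC_Os07g49460), a pseudo-response regulator that delays flowering in long days, was at 24.9, 30.8 and 61.2 CPM in panicles and 193, 262 and 494 CPM in leaves, lower (log2 -2.93, SE 0.40, adjusted p = 1.39e-06). OsPRR95 (LOC_Os09g36220) was lower (log2 -2.69, SE 0.43) and in all 5 plants with both organs. OsLHY (LOC_Os08g06110), a MYB factor of the morning loop, was lower (log2 -1.65, SE 0.63, adjusted p = 0.0368), with leaf values from 46.9 to 2667 CPM. Its adjusted p rose to between 0.0635 and 0.10 without any 1 of leaves 47, 199 and 230 or panicles 43, 50, 95 and 199. The labels give no hour of sampling, and any difference in hour between the organs was not tested.

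Of 9 flowering time genes tested, 1 was higher and 2 lower, close to the 22.7 and 17.9% of all genes, with a median log2 difference of -0.72. With the plant as a block 1 of the 7 tested was called (33.0% of all genes). PhyA (LOC_Os03g51030), a phytochrome light receptor, was at 33.6, 47.7 and 139 CPM in panicles and 5.57, 19 and 37.8 CPM in leaves, higher by 1.71 (SE 0.47, adjusted p = 0.00399). OsMADS51 (LOC_Os01g69850), a promoter of flowering in short days, was lower (log2 -2.13, SE 0.61, adjusted p = 0.00554, and 0.0581 with the plant as a block). The florigen gene Hd3a (LOC_Os06g06320), whose protein moves from the leaf to the shoot tip, had a median of 7.95 CPM in panicles, while 4 of 6 leaves held 0 counts and leaf 49 held 20.7 CPM (adjusted p = 0.269). SPL factors, only some of which are targets of miR156, include regulators of shoot and panicle branching. They were called 2 higher and 3 lower of 11 tested, near the 40.6% of all genes called. With the plant as a block 3 of the 8 tested were called, near the 33.0% of all genes. OsSPL9 (LOC_Os05g33810) was lower, at 25.2, 30.7 and 40.8 CPM in panicles and 40.8, 98.4 and 120.4 CPM in leaves (log2 -1.5, SE 0.27, adjusted p = 4.29e-05). OsSPL1 (LOC_Os01g18850) was also lower (log2 -1.62, SE 0.42, adjusted p = 0.00257). OsSPL12 (LOC_Os06g49010) was higher by 1.40 (SE 0.46, adjusted p = 0.0146, and 0.0882 with the block). OsSPL16 (LOC_Os08g41940), which affects grain width, was higher by 1.74 (SE 0.66, adjusted p = 0.0349), and its adjusted p was 0.0508 to 0.0893 without any 1 of 7 libraries: leaves 43, 95, 199 and 230 and panicles 47, 50 and 230.

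Cell division genes were called 5 higher and 1 lower of 10 tested (22.7 and 17.9% of all genes), and 3 of the 8 tested with the plant as a block were called, near the 33.0% of all genes. In the DGE counts the helicase subunits of DNA replication did not move together. MCM4 (LOC_Os01g36390) was at 6.28, 13 and 24.8 CPM in panicles and 0, 0.304 and 1.55 CPM in leaves, higher by 4.72 (SE 0.73, adjusted p = 7.46e-06), or by 5.45 without leaf 47. MCM7 (LOC_Os12g37400) was higher by 4.0 (SE 0.88, adjusted p = 5.14e-04), or by 4.65 without leaf 47, and CDKB2;1 (LOC_Os08g40170), a kinase of the cell cycle, by 3.05 (SE 0.72, adjusted p = 0.00108), or by 4.06 without leaf 47. MCM5 (LOC_Os02g55410), another subunit of the same ring, was at 8.28, 20.6 and 38.5 CPM in panicles and 33.1, 112 and 253 CPM in leaves, lower (log2 -2.44, SE 0.58, adjusted p = 0.00115). The RNA-seq of plant 47, described below, had MCM5 on the panicle side, at 3.61 RPKM against 0.0797 RPKM in the leaf. The split of MCM5 from the other subunits therefore holds for DGE alone. MCM2 (LOC_Os11g29380) stood at medians of 13.3 and 13.5 CPM (adjusted p = 0.938).

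Cell wall and water channel genes depended on the fit. Of 7 genes of cellulose synthesis, 5 were higher in the panicle and 0 lower (22.7 and 17.9% of all genes), with a median log2 difference of 1.60. With the plant as a block 2 of the 6 tested were called (33.0% of all genes), and without the year term 0 of 7 (6764 of 20018 genes). CESA4 (LOC_Os01g54620), a synthase of the secondary wall, was at 10.9, 25.6 and 101 CPM in panicles and 0, 2.10 and 27.2 CPM in leaves (log2 3.0, SE 0.91, adjusted p = 0.00887, and 0.108 with the block). BC1 (LOC_Os03g30250), a COBRA-like protein of secondary walls, was at 1.53, 11.3 and 53.1 CPM in panicles and 0, 0.558 and 11.8 CPM in leaves (log2 2.87, SE 0.98, adjusted p = 0.0184). Its adjusted p was 0.0626 with the block and 0.0576 without panicle 43, and its log2 difference was 3.46 without leaf 95. All 7 were above the leaf in heading panicles (23.9% of all genes), and 6 of the 7 were lower at flowering than at heading (4.03%). CESA7 (LOC_Os10g32980), of the same complex, had a median of 157 CPM in heading panicles, 10.6 CPM in flowering panicles and 0.903 CPM in leaves, and flowering was below heading (log2 -3.26, SE 0.77, adjusted p = 0.00669). Of 8 plasma membrane aquaporins, 2 were higher and 1 lower, near the 40.6% of all genes called, and 0 of the 8 were called with the plant as a block (33.0% of all genes). PIP2;7 (LOC_Os09g36930) was at 1474 to 3151 CPM in leaves of 2009 and 11.1 to 180.5 CPM in those of 2010, against 11.7 to 113 CPM in all panicles, so its log2 difference of -2.85 (adjusted p = 2.86e-04, and 0.137 with the plant as a block) was -4.54 within 2009 and -1.14 within 2010. Panicle 230 held 166 CPM of PIP2;4 (LOC_Os07g26630), where the other 5 panicles held 6.10 to 18.8 CPM and the leaves 0 to 15.0 CPM. That gene was called higher (log2 3.70, adjusted p = 0.00289, and 0.0828 with the plant as a block), with a log2 difference of 2.46 without panicle 230 (adjusted p = 0.0223). PIP2;6 (LOC_Os04g16450) was the other member called higher (log2 1.86, SE 0.65, adjusted p = 0.0213), with an adjusted p of 0.122 under the block and 0.0523 without panicle 50.

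Of 5 genes in common use as references, 1 was called, where 40.6% of all genes were. ACT1 (LOC_Os03g50885), an actin, was at 183, 504 and 1166 CPM in panicles and 18.3, 47.4 and 112 CPM in leaves, higher by 3.35 (SE 0.55, adjusted p = 1.59e-05). The translation factors eEF1a (LOC_Os03g08020) and eIF4a (LOC_Os06g48750) and the ubiquitin gene UBQ5 (LOC_Os01g22490) had log2 differences of 0.03, 0.78 and -0.25 and were not called.

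Loci over the whole table were ranked among called genes whose libraries did not overlap and whose lowest library in the higher tissue held at least 10 CPM. In that ranking the fitted difference towards the panicle was largest for LOC_Os06g45230, a locus with no symbol here. Its level was 174, 612 and 1149.9 CPM in panicles, with 0 counts in all leaves. It was at least 2915-fold higher against the 3 counts that a total of 0 over the group allows. LOC_Os03g05770, at 105, 269.6 and 462 CPM, also had 0 counts in leaves and was at least 1249.6-fold higher. Such bounds and counting intervals allow for counting error alone, because amplified copies of a tag are not separate molecules. At heading these loci ranged from 0 to 234 CPM and from 0 to 84.1 CPM, with the highest value of each in heading panicle 43. In the other direction, LOC_Os02g10120 was at 0, 0.713 and 2.10 CPM in panicles and 153, 575 and 3055 CPM in leaves, lower (log2 -9.80, SE 0.77, adjusted p = 4.17e-10, or -10.39 without panicle 230), while LOC_Os12g33120 was at 0.224, 0.763 and 14.2 CPM against 90.9, 744 and 1659 CPM and lower (log2 -8.45, SE 1.33, or -9.42 without panicle 230).

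The same contrast in the annual wild rice O. nivara, made from other plants, called 4408 genes higher and 3139 lower, 37.7% of those tested. The difference between the species in this contrast was called for 4 of 20018 genes (0.0200%) by edgeR, while 2262 had an unadjusted p under 0.05, and 251 were called by DESeq2. None of the 227 list members was among the 4. The list medians in O. nivara were -2.44 for photosystems, -3.03 for the Calvin cycle and 4.68 for floral organ genes. Some other list medians lay further apart between the species. In O. rufipogon and O. nivara they were -3.04 and -1.57 for chlorophyll synthesis, and 4.54 and 2.26 for late pollen. For aquaporins they were 0.04 and 1.39, and for the reference genes 0.31 and 1.52. Of the 5 reference genes, 1 was called higher in the panicle in O. rufipogon and 4 in O. nivara. RTS stood at 64.8 ± 104 CPM in O. nivara flowering panicles and at 1513 ± 2044 CPM (SD, n = 6) in those of O. rufipogon, and the difference between the contrasts was -7.43 on the log2 scale (adjusted p = 0.174). SSIIa stood at 4.01 ± 2.03 CPM against 16.9 ± 9.42 CPM, with a difference between the contrasts of -4.24 (adjusted p = 0.110).

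Paired-end RNA-seq of plant 47, 1 library per organ and so without a replicate check, gave a second reading. Over the 19668 tested genes found in both tables, its log2 ratio of panicle to leaf, from RPKM plus 1, correlated with the DGE log2 difference across genes at Pearson's r of 0.800 and Spearman's rho of 0.730. Both assays include this plant, and genes are not independent replicates. Of the genes called higher by DGE, 4400 of 4496 (97.9%) were also higher in RNA-seq, and of those called lower 2826 of 3540 (79.8%) were lower. RNA-seq ratios were shifted towards the panicle, with a median of 0.66 over all these genes. That shift favours a match for genes called higher, so the 2 percentages cannot be compared directly. Of 159 called list members, 153 had the same direction. The exceptions, which were all called lower by DGE, were OsLHY, OsPRR1, OsMADS51, phyB, OsSPL11 and MCM5. The RNA-seq log2 ratios of OsLHY, OsPRR1, phyB and OsSPL11 were 0.45, 0.10, 0.08 and 0.23, below the median of 0.66. Some of these DGE calls were weak: phyB had an adjusted p of 0.255 with the plant as a block, and OsSPL11 had one of 0.0532 to 0.114 without any 1 of 8 libraries. MCM5 was at 3.61 RPKM in the panicle and 0.0797 RPKM in the leaf, a log2 ratio of 2.09, where the DGE ratio of the same plant was 0.21. OsMADS51 was at 67.5 and 28.2 RPKM, a log2 ratio of 1.23, and plant 47 was also the exception among the DGE pairs, with 184 CPM in its panicle and 127 CPM in its leaf.

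**Figure D5:**
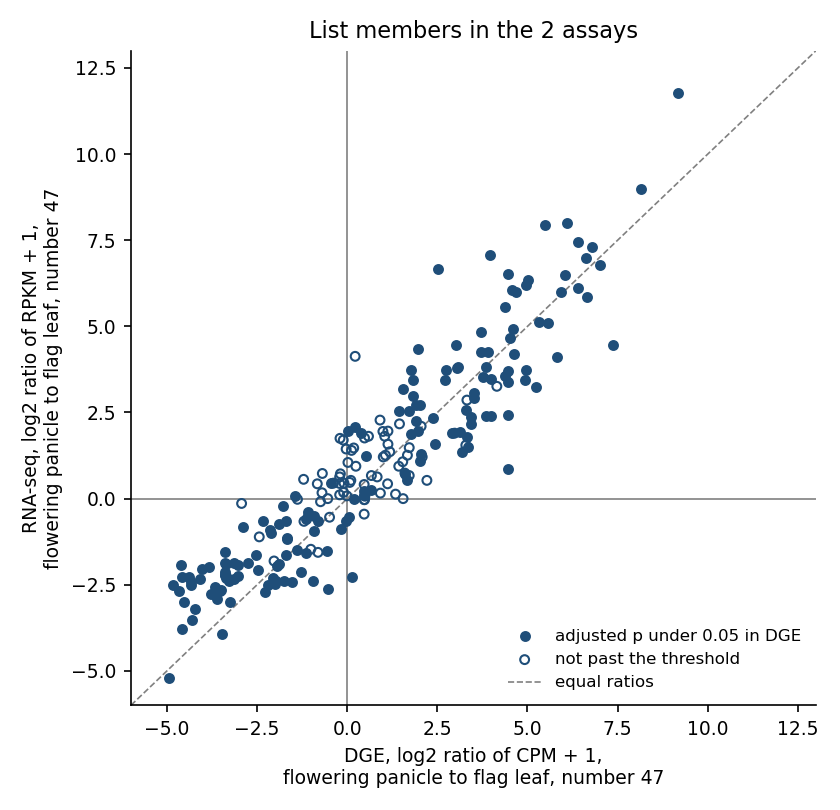
Log2 ratio of flowering panicle to flag leaf in plant 47 for the 227 list members, by DGE (CPM plus 1, horizontal) and RNA-seq (RPKM plus 1, vertical), filled where DGE over all 12 libraries gave an adjusted p under 0.05. Most called genes lie in the lower left and upper right, where both assays of this plant have the same direction. The RNA-seq direction matched that of the DGE call over all 12 libraries for 153 of 159.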

How the data were processed

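Digital gene expression (DGE) libraries were cut with NlaIII and MmeI, per the labels' protocols, and the deposited counts are raw tag counts per gene made by the authors. BWA and edgeR 3.6.8 are named in the submitters' processing notes, while build and annotation are not stated in the labels or headers. The deposited TPM equal the counts times a constant per library and were used only for that check. The authors kept 20134 genes, each with at least 5 TPM in at least 4 of 36 libraries, and 0.731 to 2.53% of a library lay outside them. The RNA-seq values are the authors' deposited RPKM, 1 library per tissue and species.

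Counts of all 36 DGE libraries were fitted with edgeR 4.0.16 in R 4.3.3: TMM scaling, filterByExpr, 6 group means and a year term within each tissue, the quasi-likelihood F test, and Benjamini-Hochberg adjustment over 20018 genes at 0.05. The script was tested on simulated data. Alternatives were DESeq2 1.42.0, limma 3.58.1, other scalings, filters and subsets, and each library left out. Deviations of same-numbered libraries from their group means correlated at 0.276 to 0.457 in all 5 pairs (-0.0306 to 0.317 with year means removed), so the title number was used as a block in an alternative.

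The members and lists were chosen with earlier results of these data known. Genes were named as the 3 largest called members per list and direction, tissue markers, abundant list members, the leading loci and the 2 loci with the lowest p for the species difference, and others were chosen after their values were seen. Division of tags between near-identical copies and between overlapping genes is uncertain, and whether counting used strand is not stated in the labels or headers.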

Additional observations from a re-analysis of the deposited data

Results flagged for a closer look

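In 11 of 212 groups of 6 libraries examined, 1 library stood apart from the other 5 by Dixon's criterion. For normally distributed values chance gives about 1 in 20 such groups, and whether these values are so distributed was not tested. Panicle 230 was the library in 5 of the 11. It held 10.1 CPM of CYP704B2 (1.33 to 2.67 in the others), 1.26 CPM of OsINV4 (84.2 to 581), 0.419 CPM of SSIIa (11.1 to 25.8) and 166 CPM of PIP2;4 (6.10 to 18.8). Its Calvin cycle and photorespiration share was 2.65% (0.561 to 1.09%). The other panicle was 50, with 1.91 CPM of PRK (84.8 to 352). Among leaves, leaf 230 held 0 CPM of OsMADS2 (1.22 to 2.59) and leaf 199 held 0.381 CPM of STRL2, a gene of the tapetum list, where the others held 0. Against leaves that all held 0, any count of STRL2 meets the criterion. Leaf 47 held 109.7 CPM of AGPL3 (359 to 447) and 0 CPM of RISBZ1 (1.06 to 1.83). The DNA replication and cell division share of leaf 49 was 0.0248% (0.00627 to 0.0127%).

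The tissue difference itself differed between the species for LOC_Os04g42500, by -2.08 on the log2 scale (O. nivara minus O. rufipogon, adjusted p = 0.0373, edgeR). It was at 37.8 ± 13.6 CPM in flowering panicles and 6.25 ± 2.70 CPM in leaves of O. rufipogon, and at 14.7 ± 3.84 and 10.2 ± 1.22 CPM in O. nivara (SD, n = 6). For LOC_Os02g17304 the difference was 2.66 (adjusted p = 0.0373, edgeR), with 5.38 ± 1.86 and 16.2 ± 4.81 CPM in O. rufipogon and 7.25 ± 2.09 and 3.37 ± 1.51 CPM in O. nivara. With the title number as a block the adjusted p of these loci was 0.520 and 0.590.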

How the results depend on the processing

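No called gene was called in the opposite direction under any alternative run. With the title number as a replicate block 3016 genes were higher and 2358 lower (2354 lower over the 10 libraries of the shared numbers), in fits that tested fewer genes. A test against a 2-fold difference gave 2791 and 1893, and 2009 alone 2436 and 1805. Leaving out 1 library gave 4024 to 4535 higher and 3184 to 3521 lower. DESeq2 gave 5097 and 3801 and limma-trend 4698 and 3320. The species difference in the contrast was called for 0 genes with the block or without the year term, 9 with DESeq2 size factors in edgeR, 251 with DESeq2, and 0 to 13 when 1 library was left out. The cause of these changes was not tested.

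Some counts of called list members changed as follows, and smaller changes are mostly left out. Both blocks gave storage proteins 0, clock 4, flowering time 1, SPL 3, DNA replication 3, cellulose 2 and aquaporins 0. The block over 12 libraries tested 0 of the 2 storage protein genes. It also gave floral organ 17, sugar 10, KNOX and YABBY 6, starch 13, tapetum 7, gibberellin 3 and chlorophyll breakdown 4. The 12 libraries alone gave storage proteins 0, clock 4 and SPL 3. The 2-fold test gave storage proteins 0, clock 2, flowering time 1, SPL 1 and cellulose 2. In 2009 alone tapetum had 4, late pollen 3, storage proteins 0, clock 4, flowering time 1, SPL 2, DNA replication 2 and cellulose 2. In 2010 alone storage proteins had 0, DNA replication 3, cellulose 0, aquaporins 1 and housekeeping 2. Without the year term cellulose had 0. Leaving out 1 library gave SPL 3 to 5 and storage proteins 0 to 1.

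The difference in summed share of counts, in percentage points, went from -8.27 to -12.2 for photosystems, -6.47 to -9.69 for the Calvin cycle, -0.514 to -0.785 for chlorophyll synthesis, -0.113 to -0.189 for the clock and -0.0241 to -0.0522 for flowering time with TMM scaling. Its sign turned for starch (0.00475 to -0.0809) and SPL (0.00311 to -0.00810). These shares have no test here. Among named genes the block over 12 libraries ended 11 calls and added 1, and it changed no other call among those it tested.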
